A study of Mus musculus with 8 samples.

Results

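The Argonaute, Tnrc6 and Trim71 silencing factors are the proteins that carry out repression by microRNAs, together with Trim71, a ubiquitin ligase that binds messenger RNAs. They were chosen by gene name: Ago1, Ago2, Ago3 and Ago4, Tnrc6a, Tnrc6b and Tnrc6c, and Trim71. All 8 are among the 24420 rows of the total RNA table, and 3 of them (Ago1, Ago3 and Tnrc6a) are among the 5804 rows of the polysomal RNA table. The polysomal values of the other 5 were not analysed here. RNA was sequenced from mouse embryos at E11.5, labelled as brain and taken from the neural tube. The 2 genotypes were wildtype (WT) and Lin28a-/-;b-/- (double knockout, dKO), labelled as homozygous mutant for both Lin28 genes. Each genotype was measured as total RNA and as polysomal RNA, the RNA carried by several ribosomes at once, with 2 libraries for each of the 4 groups. The sources used here name neither the strain nor the number of embryos behind a library, nor whether replicates are separate animals, so the p-values measure the spread between these libraries, which may be technical.

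Argonaute proteins hold a mature microRNA and pair it with sites in messenger RNAs, mostly through the seed at bases 2 to 8 of the microRNA. Ago2 is the Argonaute with strong RNA-cutting activity in mammals. Tnrc6 proteins bind the Argonautes through repeated tryptophan motifs and recruit the deadenylases that shorten the poly(A) tail, after which the cap is removed and the RNA is degraded. Trim71, the mammalian Lin41, belongs to the TRIM-NHL family of RNA-binding proteins. It is active in early embryos and neural progenitors, and its own mRNA is a classical target of let-7, the microRNA family whose maturation Lin28 proteins block.

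The sequences that bear on these genes are the let-7 seed and its matches in their 3′ UTRs. The mature let-7 sequences of RefSeq (GRCm38.p6) are given for 3 of 9 family members in the table used, all 9 of which share the seed shown in capitals.
mmu-let-7a-5p: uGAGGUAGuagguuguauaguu
mmu-let-7g-5p: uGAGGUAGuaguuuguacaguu
mmu-miR-98-5p: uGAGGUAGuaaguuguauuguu

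In the longest 3′ UTR that GENCODE M21 (GRCm38) annotates for each gene, the 7 letters CTACCTC, complementary to that seed, were searched on the transcript strand. Trim71 held 4 matches in a 3′ UTR of 5512 nt on the minus strand of chromosome 9, Ago2 held 3 in 11064 nt on the minus strand of chromosome 15, and Ago3 held 1 in 12742 nt on the minus strand of chromosome 4. Ago1, Ago4, Tnrc6a, Tnrc6b and Tnrc6c had none in UTRs of 2345 to 11609 nt. The 8 matches are shown with flanking bases, written 5′ to 3′ as in the transcript, with the match in capitals.
Trim71 site 1, chr9:114512463-114512488: gcctaagtcCTACCTCagcttaaatt
Trim71 site 2, chr9:114512367-114512392: aatttctatCTACCTCaactctttgc
Trim71 site 3, chr9:114509038-114509063: atggattttCTACCTCaattttggca
Trim71 site 4, chr9:114509012-114509037: aaaagttgtCTACCTCacgtcggcac
Ago2 site 1, chr15:73101715-73101740: gcataaaagCTACCTCtgacttctca
Ago2 site 2, chr15:73100031-73100056: gcctctgtcCTACCTCcaggcactgg
Ago2 site 3, chr15:73097973-73097998: aatgtggatCTACCTCagttaaacag
Ago3 site 1, chr4:126335031-126335056: tgccctcacCTACCTCaccaagtccc

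In all 4 Trim71 matches the base that follows is an A, the form that Argonaute binding favours, and the same holds for 1 of the 3 Ago2 matches and for the Ago3 match. The Trim71 matches form 2 close pairs, at 166 and 262 nt and at 3591 and 3617 nt after the stop codon. Of the 13277 tested genes with an annotated 3′ UTR, 10.8% held at least 1 match. Among the 683 genes with a 3′ UTR of like length to that of Trim71 (0.8 to 1.25 times as long), 29.9% held a match and 4 genes, Trim71 included, held 4 or more. For the long UTR of Ago2 the share with a match was 48.3% of 60 genes of like length, and 1 gene, Ago2 included, held 3 or more. For the UTR of Tnrc6b, which has no match, the share was 46.2% of 52. A match is a description of the letters and not a measured binding site, and let-7 levels were not analysed here.

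**Figure D1:**
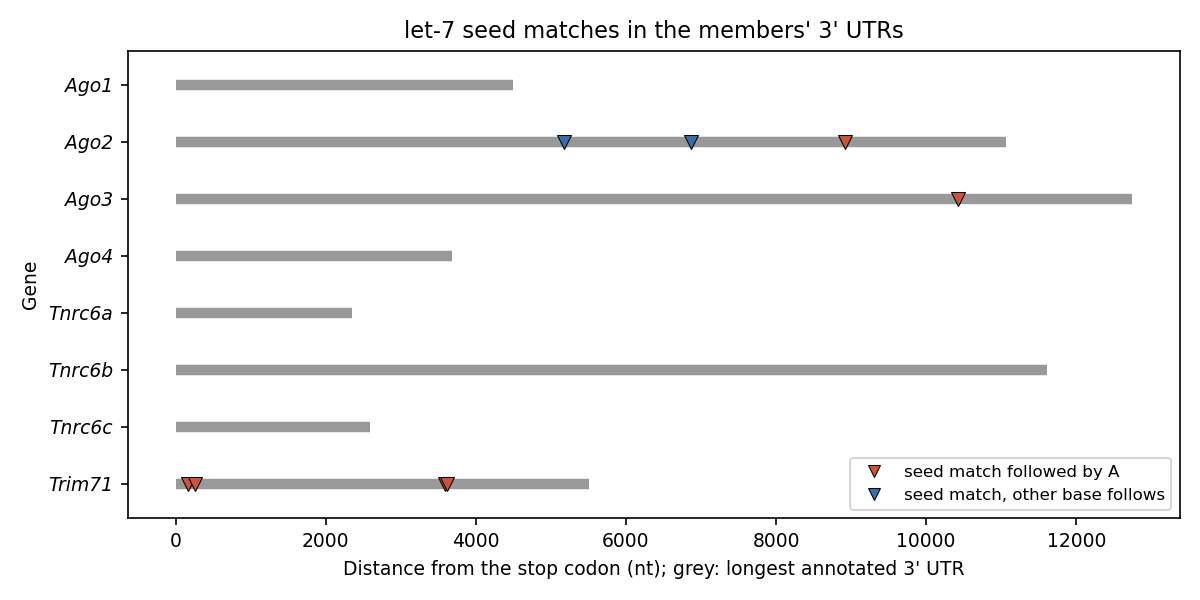
Map of the longest annotated 3′ UTR of each silencing factor (grey bar, distance from the stop codon in nt), with let-7 seed matches as triangles, red where an A follows and blue where another base does. Trim71 holds 4 matches in 5512 nt, Ago2 holds 3 in 11064 nt and Ago3 holds 1 in 12742 nt, while the other 5 genes hold none.

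The targeted genes followed the labels in every library. Lin28a had 1151 and 1091 counts in the WT and 103 and 120 in the dKO libraries of total RNA, and Lin28b had 2014 and 1852 against 755 and 855. Total counts were 15060560 to 15768767 per total RNA library. Counts of the genes in the polysomal table added up to 14874143 and 15414712 for WT and 3740980 and 5164982 for dKO, which are not library depths. All 9 neural progenitor markers and all 9 neuron markers were detected, with summed levels of 4018 to 4041 CPM (TMM-scaled counts relative to library size) in WT and 3656 to 3696 CPM in dKO for progenitors, and of 4474 to 4494 against 4308 to 4319 CPM for neurons. The 9 erythroid markers summed to 4413 to 4479 CPM in WT and to 2695 to 2700 CPM in dKO, with Hba-a1 at 0 throughout. Mesenchyme markers (8 genes) summed to 298 to 314 CPM in WT and 249 to 254 CPM in dKO, with Col2a1 alone at means of 101 and 57.2 CPM. The sums of endothelial and macrophage markers (6 each) overlapped between genotypes. Single genes within a sum could differ in direction. At an adjusted p of 0.05 (edgeR), 2 neuron markers were higher and 3 lower in dKO. Nefl went from 479 to 290 CPM and Nefm from 147 to 59.7 CPM, while Elavl3 and Map2 were higher. The counts were 2 and 3 for progenitor, 1 and 1 for macrophage and 0 and 3 for mesenchyme markers. They were 0 and 0 for endothelial markers, and 0 and 7 for the 8 erythroid markers tested. Among all tested genes 14.7% were higher and 16.0% lower. Of the sex-linked genes, Xist stood at 162 to 169 CPM in WT and 106 to 111 CPM in dKO, and Ddx3y at 23.9 to 25.9 against 33.3 to 38.7 CPM. Whether the mix of sexes differed was not tested. The part of these shifts in the results on the silencing factors was not tested, and in bulk tissue fewer cells of a type and less RNA per cell cannot be told apart.

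The comparison of genotypes in total RNA showed 1 fall and 1 small rise among the 8 silencing factors. Trim71 fell 2.04-fold in dKO, and Tnrc6b, 1 of the 3 Tnrc6 scaffold genes, rose 1.17-fold. The 4 Argonautes, Tnrc6a and Tnrc6c did not pass the threshold of an adjusted p of 0.05 (edgeR quasi-likelihood test, Benjamini-Hochberg over 14594 genes). Of all tested genes 30.7% were called, 16.0% lower and 14.7% higher, so 2 of 8 is close to that background. The WT and dKO libraries did not overlap in 6 of the 8 genes (4 lower and 2 higher in dKO), against 62.3% of all tested genes (31.2% lower and 31.0% higher).

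Trim71 (ENSMUSG00000079259.2, chromosome 9 from 114507133 to 114564369, minus strand) had 436 and 448 counts in the WT and 248 and 191 in the dKO libraries. These are 27.8 and 29.6 CPM in WT and 15.8 and 12.3 CPM in dKO. Every dKO library thus lay below every WT library, and the gap was wider than the spread within either genotype. The means were 28.7 ± 1.33 and 14.0 ± 2.46 CPM (SD, n = 2), and edgeR put the difference at -1.03 ± 0.13 on the log2 scale (SE; adjusted p = 2.50e-13). Of the 14594 genes tested, 165 had a lower log2 fold change. No stretch of 50 bases of its transcripts recurs in another annotated gene. A gene on the opposite strand overlaps 135 bases of its exons, or 1.45% of them, and whether the counting used strand is not stated.

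**Figure D2:**
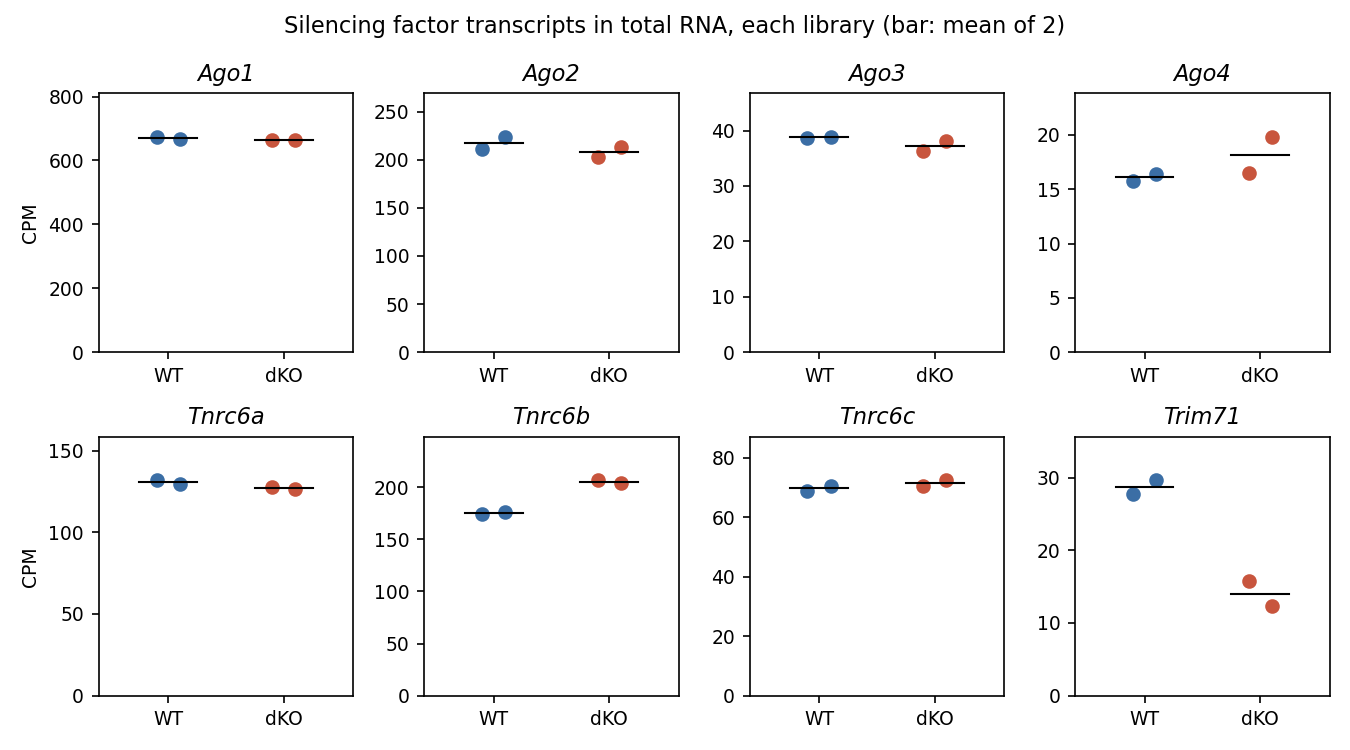
Level of each silencing factor in total RNA (CPM, linear axis from 0, scale differs between panels), with a point per library (WT blue, dKO red) and a bar at the mean of 2. Trim71 falls from 27.8 and 29.6 CPM in WT to 15.8 and 12.3 CPM in dKO, Tnrc6b is higher in both dKO libraries, and the other 6 genes lie close together.

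The 4 Argonaute genes did not pass the test in total RNA. Ago1, which lies beside Ago3 and Ago4 on chromosome 4 (126435012 to 126468583, minus strand), stood at 675 and 668 CPM in WT and at 663 and 664 CPM in dKO. Its log2 fold change was -0.017, with a 95% interval from -0.069 to 0.036 (adjusted p = 0.698, edgeR), the narrowest of the 8. Ago2, the slicing Argonaute (chromosome 15, 73095844 to 73184935, minus strand), stood at 211 and 224 CPM in WT and at 203 and 213 CPM in dKO, so the genotypes overlapped. Its log2 fold change was -0.066, with an interval from -0.15 to 0.021 (adjusted p = 0.273, edgeR). Of the 50-base stretches of Ago2 transcripts, 2.22% recur elsewhere, in 3 predicted genes and in Ago1, so that reads there could be split or dropped.

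Ago3 and Ago4 were much less abundant and so less precisely measured. Ago3 (chromosome 4, 126331704 to 126429556, minus strand) stood at 38.7 and 38.9 CPM in WT and at 36.3 and 38.1 CPM in dKO. Its log2 fold change was -0.061, with an interval from -0.26 to 0.14 (adjusted p = 0.707, edgeR). Ago4 (chromosome 4, 126489541 to 126533472, minus strand) had only 248 and 248 WT counts against 259 and 308 dKO counts, or 15.8 and 16.4 against 16.5 and 19.8 CPM. Its log2 fold change was 0.17, with an interval from -0.11 to 0.45 (adjusted p = 0.390, edgeR), the widest of the family. That interval holds both small falls and a rise by 0.45, which these counts could not tell apart from 0.

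Per length, Ago1 made up most of the Argonaute message. On the scale of CPM per kilobase of exon (all annotated exons of the gene), the WT levels were 82.7 ± 0.576 for Ago1 and 15.5 ± 0.670 for Ago2 (SD, n = 2). Ago3 was at 2.34 ± 0.0106 and Ago4 at 2.32 ± 0.0626 on that scale, and these last 2 did not differ beyond their spread. Ago1 therefore held 80.4% ± 0.691 of the summed Argonaute level in WT and 80.6% ± 0.725 in dKO. The share of Ago2 was 15.1% ± 0.627 in WT and 14.6% ± 0.359 in dKO. The summed level was 103 ± 0.168 CPM per kilobase in WT and 101 ± 1.01 in dKO. Neither the sum nor these shares was tested, and the genotypes' shares of Ago1 and Ago2 differed by less than their SD in WT.

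The 3 Tnrc6 genes differed in behaviour. Tnrc6b (chromosome 15, 80711313 to 80941085, plus strand) stood at 174 and 177 CPM in WT and at 207 and 204 CPM in dKO, without overlap. Its log2 fold change was 0.23 ± 0.05 (SE; adjusted p = 1.07e-05, edgeR), with an interval from 0.14 to 0.32. The rise is thus larger than the replicate spread but small. Tnrc6a (chromosome 7, 123123885 to 123195296, plus strand) stood at 132 and 130 CPM in WT and at 128 and 127 CPM in dKO (log2 fold change -0.040, interval -0.15 to 0.069, adjusted p = 0.641, edgeR). Tnrc6c (chromosome 11, 117654289 to 117763439, plus strand) overlapped between genotypes, at 68.8 and 70.7 CPM in WT and at 70.4 and 72.6 CPM in dKO (log2 fold change 0.036, interval -0.11 to 0.18, adjusted p = 0.769, edgeR).

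Per length, the order of the Tnrc6 genes in WT was Tnrc6a at 10.3 ± 0.119, Tnrc6b at 7.41 ± 0.0645 and Tnrc6c at 5.43 ± 0.104 CPM per kilobase (SD, n = 2), each neighbour apart by more than its spread. In dKO the same order held, at 10.0 ± 0.0758, 8.68 ± 0.0882 and 5.57 ± 0.116 CPM per kilobase. Before division by length, Tnrc6b lay above Tnrc6a, at means of 175 against 131 CPM in WT and 205 against 127 CPM in dKO. Their order thus rests on the annotated exon lengths, 12706 nt for Tnrc6a and 23677 nt for Tnrc6b. The SD does not cover that choice, and which exons and 3′ UTRs are used in this tissue was not tested. The share of Tnrc6b in the summed Tnrc6 level was 32.0% ± 0.211 in WT and 35.8% ± 0.293 in dKO, while that of Tnrc6a was 44.5% ± 0.609 and 41.3% ± 0.231. The summed level was 23.1 ± 0.0492 CPM per kilobase in WT and 24.3 ± 0.0480 in dKO. Trim71 was the least abundant of the 8 in dKO on this scale, at 3.08 ± 0.142 CPM per kilobase in WT and 1.50 ± 0.263 in dKO, and only in WT did it exceed Ago3 and Ago4.

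Across tested genes the median change in total RNA was lower in each class with more let-7 seed matches. The median log2 fold change was 9.50e-04 for the 11843 genes with no match, -0.033 for the 1256 with 1, -0.073 for the 152 with 2 and -0.13 for the 14 with 3, of which 5 were called lower and 5 higher. It was -0.89 for the 12 genes with 4 or more, of which 7, Trim71 and Lin28b included, were called lower and 1 higher. Among genes with no match 16.4% were called lower and 15.1% higher. These shares were 20.1% and 13.6% with 1 match, and 25% and 9.87% with 2. Of the 12 genes with 4 or more, Trim71 had the 4th lowest value, after Trim6, Hmga2 and Lin28b, a targeted gene. The change of Ago2, with 3 matches, was -0.066 and that of Ago3, with 1, was -0.061, neither past the test. The 3′ UTRs also differ in length between these classes, with medians of 1143 nt for no match, 5368 nt for 3 and 4354 nt for 4 or more, and genes are not independent replicates, so this is a description without a test.

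**Figure D3:**
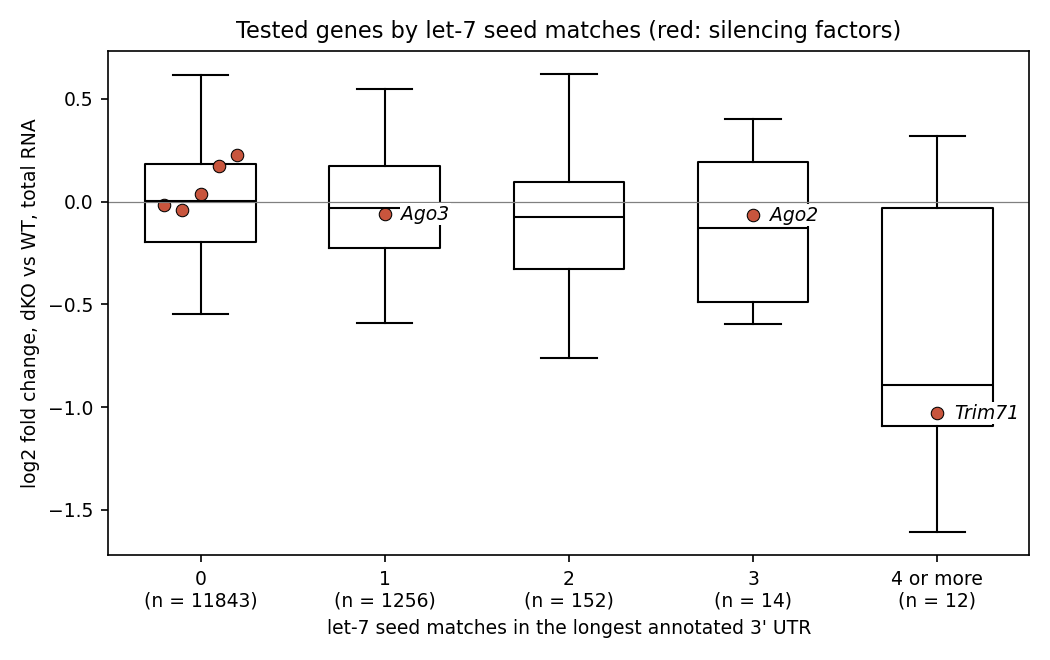
Log2 fold change in total RNA (dKO against WT) of tested genes grouped by let-7 seed matches in the longest annotated 3′ UTR, as boxes (quartiles and median, whiskers at the 5th and 95th percentiles), with the silencing factors as red points. Trim71 lies at -1.03 among the 12 genes with 4 or more matches, and the other 7 silencing factors lie between -0.066 and 0.23.

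The polysomal comparison asked how the RNA on ribosomes differed between genotypes, for the 3 members with values. Ago1, Ago3 and Tnrc6a were all lower in dKO polysomal RNA, by 1.22-fold, 1.68-fold and 1.38-fold on the TMM scale of the listed genes. The median log2 fold change of all listed genes was -0.35, so Ago1, at -0.29, was not low among them. The polysomal table lists genes picked for a genotype difference. Where the mean count was 100 or more (5441 genes), none has a log2 ratio of summed dKO to WT counts between -2.04 and -1.71. Of 5777 genes tested 99.7% were called (52.5% lower and 47.2% higher), and the genotypes did not overlap in 100% (52.8% lower and 47.2% higher), so the 3 calls are what that background gives. The p-values below are conditional on that choice, and the scaling rests on the listed genes alone.

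Ago1 had 17028 and 18178 counts in the WT and 3043 and 4575 in the dKO polysomal libraries. Scaled to the listed genes these are 1082 and 1115 CPM in WT and 895 and 901 CPM in dKO, with no overlap. By edgeR the dKO level was -0.29 ± 0.05 from WT on the log2 scale (SE; adjusted p = 0.00227), which lies above the median of all listed genes, -0.35. Its log2 ratio of summed counts was -2.21, close to the edge of the empty stretch, with 71 genes between. The call depended on the scaling: with RLE scaling, which moved the median of all genes up by 0.24, the change was -0.053 (adjusted p = 0.438), and without WT replicate 2 the adjusted p was 0.0549.

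Ago3 had 1004 and 963 WT counts against 129 and 180 dKO counts, or 63.8 and 59.1 against 37.9 and 35.4 CPM. The dKO libraries lay well below the WT libraries, at -0.75 ± 0.13 on the log2 scale by edgeR (SE; adjusted p = 0.00234). Ago3 has the lowest GC content of the 8 longest transcripts, 41.8%, and after an adjustment for GC content its log2 fold change turned to 0.30 (adjusted p = 0.141). Tnrc6a had 2921 and 2887 WT counts against 406 and 720 dKO counts, or 186 and 177 against 119 and 142 CPM. Here the dKO replicates stood further apart than the WT ones, and the log2 fold change was -0.47 ± 0.11 (SE; adjusted p = 0.00562, edgeR). It was -0.096 after the GC adjustment (adjusted p = 0.423) and -0.23 with RLE scaling (adjusted p = 0.0609). Without WT replicate 1 the adjusted p was 0.0522, and without dKO replicate 2 the change was -0.64.

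All 3 genes had a more negative genotype difference in polysomal than in total RNA. In a fit of all 8 libraries over 5780 genes present in both tables, the difference between the genotype effects was -0.24 ± 0.05 for Ago1 (SE; adjusted p = 0.00229, edgeR). It was -0.65 ± 0.15 for Ago3 (adjusted p = 0.00220) and -0.39 ± 0.12 for Tnrc6a (adjusted p = 0.00945). Of all shared genes 89.5% were called in this test (45.8% lower and 43.7% higher), and the median was -0.13. For Ago3 the GC adjustment turned the sign, to 0.34 (adjusted p = 0.111), and for Tnrc6a it left -0.087 (adjusted p = 0.523). RLE scaling ended the call of Ago1, at -0.11 (adjusted p = 0.0963), and DESeq2 ended those of Ago1, at -0.11 (adjusted p = 0.115), and Tnrc6a, at -0.26 (adjusted p = 0.0560).

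Within each genotype the fractions were compared over the same genes. In WT, where 12.0% of genes were called (8.51% lower and 3.48% higher), Ago1 was higher in polysomal than in total RNA by 0.13 ± 0.04 on the log2 scale (SE; adjusted p = 0.0475, edgeR), and this call was lost without any 1 of the total RNA or WT polysomal libraries (adjusted p from 0.110 to 0.378). Ago3 was at 0.087 (interval -0.13 to 0.30, adjusted p = 0.642) and Tnrc6a at -0.11 (interval -0.28 to 0.067, adjusted p = 0.444), neither past the threshold. In dKO, where 90.0% of genes were called (46.9% lower and 43.1% higher), Ago1, Ago3 and Tnrc6a were lower in polysomal RNA. The values were -0.56 ± 0.11 for Ago3 (adjusted p = 8.05e-04), -0.49 ± 0.09 for Tnrc6a (adjusted p = 2.91e-04) and -0.10 ± 0.04 for Ago1 (adjusted p = 0.0287). The call of Ago1 was lost without any 1 dKO total RNA or WT polysomal library (adjusted p from 0.0540 to 0.0949). The sign for Ago1 turned with RLE scaling, to 0.040, and that for Ago3 with the GC adjustment, to 0.43. These contrasts share their libraries with the genotype comparisons and are no separate evidence.

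**Figure D4:**
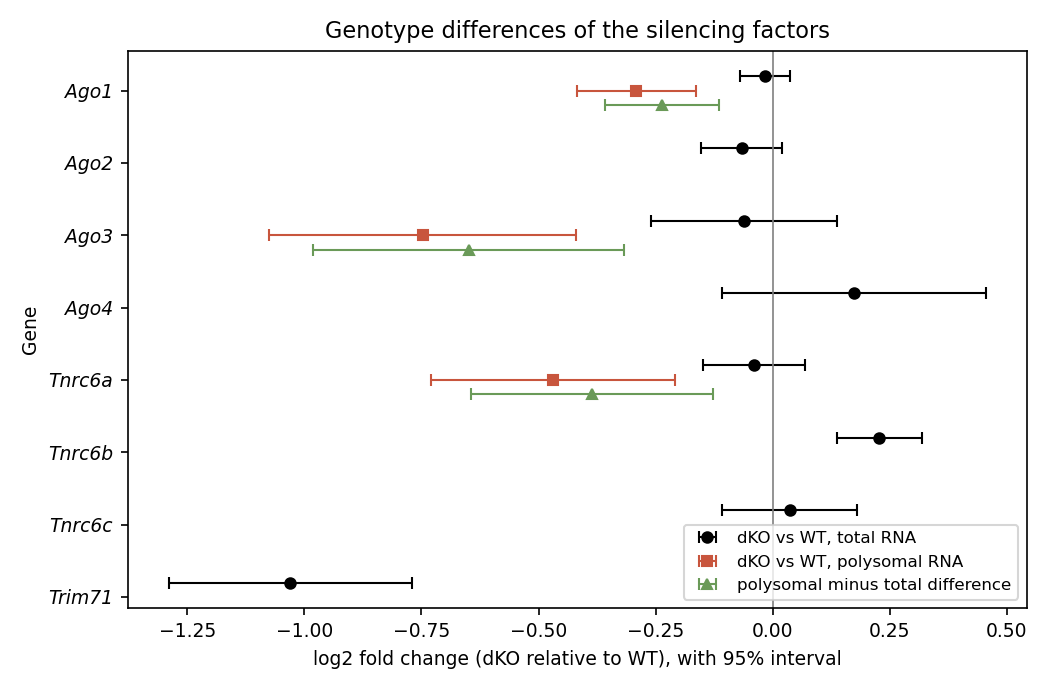
Log2 fold change of each silencing factor (x axis, with 95% intervals) between dKO and WT in total RNA (black), in polysomal RNA (red) and the difference between the fractions (green, polysomal minus total). In total RNA only Trim71, at -1.03, and Tnrc6b, at 0.23, have intervals that leave out 0, while Ago1, Ago3 and Tnrc6a lie below 0 in polysomal RNA.

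Other genes of the silencing pathway were followed in total RNA by step. The lists used from here on were chosen with earlier results of these data known, so their counts are descriptions. The shares of all tested genes beside them are not matched for expression level. Upstream, 10 of 14 microRNA biogenesis genes fell and none rose, against 16.0% lower and 14.7% higher among all tested genes (median log2 fold change -0.28, against 0.0030 for all). They included Tarbp2, a partner of Dicer, at -0.74 ± 0.14, Dicer1, which cuts the precursor, at -0.66 ± 0.05, Khsrp, which binds let-7 precursors, at -0.42 ± 0.04, and Dgcr8, a partner of Drosha, at -0.38 ± 0.09. Of 16 genes that load or accompany Argonaute 9 fell and none rose (median -0.23), against the same 16.0% and 14.7%. The chaperone gene Hsp90aa1 changed by -0.61 ± 0.07, from 92.6 to 60.7 CPM, and the co-chaperone genes Stip1 and Fkbp4 by -0.58 ± 0.06 and -0.41 ± 0.04. Hsp90ab1, of the same list and far more abundant, changed by only -0.12 ± 0.02, from 1714 to 1578 CPM. Hspa8, also of that list, did not pass, at -0.0053 ± 0.05. Ajuba, a LIM protein that binds Argonautes, changed by -0.44 ± 0.07. The erythroid and mesenchyme marker sums were lower in dKO as given above, and their part in these falls was not tested.

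Downstream of Tnrc6 the changes went both ways. Of 20 genes of deadenylation 6 rose and 5 fell (median 0.073), against 14.7% higher and 16.0% lower among all tested genes. The antiproliferative deadenylase cofactors Btg2 and Btg1 rose by 0.53 ± 0.04 and 0.42 ± 0.05, and the deadenylase genes Parn and Pan2 changed by -0.35 ± 0.11 and -0.33 ± 0.10. Parn and Pan2 stood at only 34.8 and 46.6 CPM in WT. The more abundant Cnot6 and Cnot7 of the same list rose, by 0.18 ± 0.02 (895 to 1013 CPM) and 0.23 ± 0.03 (394 to 463 CPM). The call of Parn was lost without dKO replicate 2 (adjusted p = 0.0576) and that of Pan2 without WT replicate 2 (adjusted p = 0.181). The count of falls was 3 without WT replicate 2 and 2 without dKO replicate 1. Of 14 genes of decapping and decay 3 fell and 1 rose (median -0.030), a share near the 30.7% of all tested genes that were called. The rises were 2 with upper-quartile scaling, limma-voom or a mean of at least 5 CPM. Edc4, a decapping scaffold, was at -0.43 ± 0.11, the scavenger decapping enzyme gene Dcps at -0.39 ± 0.11, Lsm14b at -0.13 ± 0.04 and Ddx6, the helicase that links Tnrc6-bound deadenylases to decapping, at 0.16 ± 0.03. Each of the 3 falls was lost without some library: Edc4 without WT replicate 1 (adjusted p = 0.0713) or dKO replicate 2 (0.0620), Dcps without WT replicate 1 (0.0581) or dKO replicate 1 (0.224), and Lsm14b without dKO replicate 1 (0.0517). The count was 1 without WT replicate 1 or dKO replicate 1. Of 6 genes of repression at the cap 1 fell, near the 16.0% of all tested genes, and 2 fell with the GC adjustment. It was Eif4e2, which encodes a cap-binding protein, at -0.16 ± 0.05, a call lost without dKO replicate 2 (adjusted p = 0.389) and by DESeq2 (adjusted p = 0.0602). Adjusted p-values here are by edgeR unless DESeq2 is named.

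**Figure D5:**
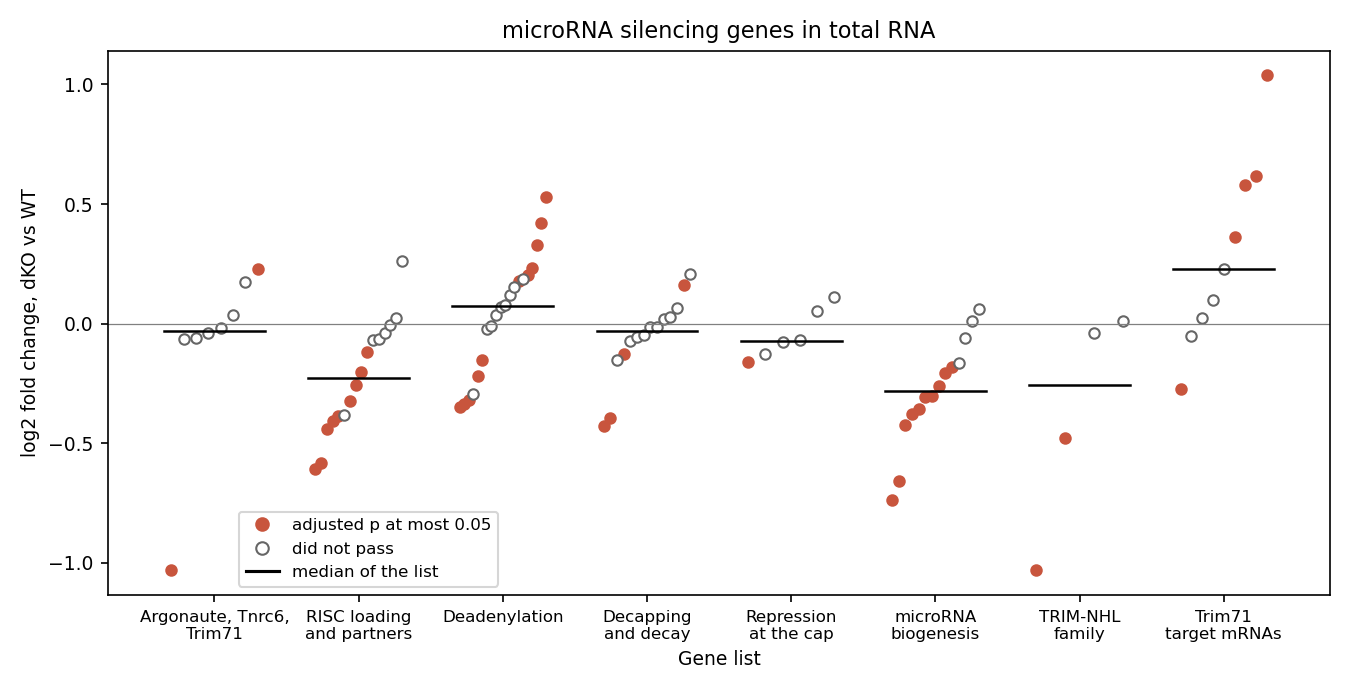
Log2 fold change in total RNA (dKO against WT, y axis) of each tested gene in 8 lists of the silencing pathway (x axis), filled red where the adjusted p is at most 0.05, with a black line at the list median. Biogenesis and loading genes that passed lie below 0, while deadenylation genes lie on both sides, and Trim71 is the lowest point, at -1.03.

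Relatives of the silencing factors were also measured. The Piwi branch of the Argonaute family, which acts in the germline, was near 0: Piwil1, Piwil2 and Piwil4 had 0 to 5 counts in every total RNA library and were not tested. Of the 4 TRIM-NHL genes, Trim71 itself and Trim32 fell and the other 2 did not pass. Among all tested genes 16.0% were lower and 14.7% higher. Trim32, a ubiquitin ligase of differentiating neural progenitors, changed by -0.48 ± 0.08 (adjusted p = 1.52e-07, edgeR), from 66.4 ± 1.66 to 47.7 ± 1.44 CPM. Trim2, at 0.012, and Trim3, at -0.039, lay near 0.

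Of 9 mRNAs listed, from general knowledge, as bound by Trim71, 4 rose and 1 fell in total RNA (median 0.23), against 14.7% higher and 16.0% lower among all tested genes. That list, too, was chosen with earlier results of these data known. Hoxa5, a homeobox gene of the hindbrain and spinal cord, rose from 18.9 ± 1.15 to 38.8 ± 1.65 CPM (SD, n = 2), a log2 fold change of 1.04 ± 0.12 (adjusted p = 1.96e-17, edgeR). Mbnl1, a splicing regulator, rose by 0.36 ± 0.07 (adjusted p = 8.19e-07). Cdkn1a, an inhibitor of the cell cycle, was at 0.58 ± 0.13 and Inhbb, an activin subunit gene, at 0.62 ± 0.23. The calls of both were lost without dKO replicate 2 (adjusted p = 0.124 and 0.225), which left 2 rises. That of Inhbb was also lost without WT replicate 1 (0.145) or dKO replicate 1 (0.0676) and by DESeq2 (0.115). E2f7, a repressor of cell cycle genes, was at -0.27 ± 0.09, and 0 genes of the list were called lower when WT replicate 1 or dKO replicate 1 was left out. It was named because it is the only fall, after its value was seen.

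The genes whose 4 total RNA values, relative to the WT mean on a log2 CPM scale, lay nearest to those of Trim71 were Phox2a, D930028M14Rik and Crocc. Their Euclidean distances were 0.102, 0.159 and 0.166 among the 11534 genes averaging 5 CPM or more, and their log2 fold changes were -1.01, -1.09 and -0.95. Neither Phox2a nor Crocc holds a let-7 seed match in its longest 3′ UTR. Nearest to Tnrc6b were Ptpra, Poc1b and Zc3h12c, at distances of 0.0111, 0.0115 and 0.0119 and log2 fold changes of 0.23, 0.22 and 0.22. With 4 libraries in 2 groups, such likeness mostly reflects an equal genotype difference.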

How the data were processed

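The members and gene lists were chosen with earlier results of these data known. The values are raw read counts per gene, in 2 tables that the authors deposited. Per the submitters' processing notes the tools were FastQC, HTSeq and TopHat, and the builds listed are mm9, mm10 and GRCm38, without role or version. Libraries were strand-specific, per the labels' protocols. The annotation, the strand setting and the treatment of multimapping reads are not stated. Counts were tested with edgeR 4.0.16 in R 4.3.3 (quasi-likelihood F test, TMM, filterByExpr, Benjamini-Hochberg, threshold 0.05). The SE is the absolute log2 fold change over the square root of F. Alternatives were RLE, upper-quartile and total-count scaling, DESeq2 1.42.0, limma-voom (limma 3.58.1), other filters, a loess offset on transcript GC content (span 0.5), a replicate block and each library left out. Gene models and 3′ UTRs are from GENCODE M21 (GRCm38) and microRNAs from RefSeq. The named genes were the 8 members, up to 4 called genes of each list with the largest change, the targeted genes and the 3 nearest to Trim71 and Tnrc6b. Outside that rule, E2f7, Trim2, Trim3, Trim6, Hmga2 and the Piwi genes were named after their values were seen. So were Hsp90ab1, Hspa8, Cnot6, Cnot7 and the single marker genes. The code was tested on simulated data: with total RNA libraries it recovered 98% of genes changed by 1 and 74% of those changed by 0.5 on the log2 scale (100 each among 14594 genes). These shares were 89% and 45% for polysomal RNA (5777 genes), and 90% and 48% for the test of genotype against fraction (5780 genes). For polysomal against total RNA, again over 5780 genes, the WT contrast gave 97% and 66%, the dKO contrast 93% and 71%. The changed genes all averaged at least 5 CPM, and all other genes were simulated without a change. In the real data 99.7% of genes were called in polysomal RNA and 89.5% in the test of genotype against fraction. The simulated shares do not describe that setting.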

Additional observations from a re-analysis of the deposited data

Results flagged for a closer look

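Under the main settings the effect of the double knockout was called different between RNA fractions for the 3 silencing factors with polysomal values. The test was that of genotype against fraction in edgeR over all 8 libraries. Its genes are those of the polysomal table, picked for a genotype difference, so its p-values are conditional on that choice. The polysomal effect minus the total RNA effect, on the log2 scale, was -0.24 for Ago1, -0.65 for Ago3 and -0.39 for Tnrc6a. The call was lost for Ago1 with RLE scaling (adjusted p = 0.0963) and DESeq2 (0.115), and for Tnrc6a with DESeq2 (0.0560) and the GC offset (0.523), while the GC offset turned Ago3 to 0.34 (0.111). With 89.5% of all shared genes called in that test, these 3 are not set apart from the other listed genes. No group has enough libraries to look for 1 that stands apart from the rest.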

How the results depend on the processing

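In total RNA the calls of Trim71 (log2 fold change from -1.22 to -0.86) and Tnrc6b (0.21 to 0.24) and the missing calls of the other 6 genes held under all refits of those genes, with Tnrc6b dropped only by a minimum change of 0.5; the fit over all 8 libraries covers neither Trim71 nor Tnrc6b. The number of genes called was 4485 of 14594, against 2944 of the same genes by DESeq2. It was 1079 with a log2 change of at least 0.5 as well (added after seeing the data), which dropped Tnrc6b and left 0 members higher. In the fit over all 8 libraries it was 1286, but of only 5780 genes tested. Leaving out a library gave 3188 to 3492 genes and always 1 member higher and 1 lower. In polysomal RNA 3 members were called lower, but 1 with RLE scaling, DESeq2 or the GC offset. The GC offset also cut the genes called from 5760 to 2826, in the test of genotype against fraction from 5171 to 2541 and in dKO polysomal against total RNA from 5202 to 3384. The members lower in the test of genotype against fraction went from 3 to 1 by DESeq2 and by the GC offset. The GC offset reversed Ago3 to 0.30 in polysomal RNA, 0.34 in the test of genotype against fraction and 0.43 in dKO polysomal against total RNA, where it counts as 1 member higher. Ago1 in dKO polysomal against total RNA reversed to 0.040 with RLE scaling and 0.040 by DESeq2. The cause was not tested. RLE scaling moved the median of all polysomal genes by 0.24, the column totals by -0.16 and the GC offset by 0.39. Leaving out a library gave 4708 to 5763 polysomal genes and 2 to 3 members lower.

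In WT polysomal against total RNA 693 genes and 1 member were called (201 higher and 492 lower, against 273 and 311 by column totals), against 1177 genes by limma-voom. A mean of at least 5 CPM left 0 members. The numbers were not taken as pairs: same-numbered libraries did not deviate together between genotypes (r across genes 0.011 in total and -0.0059 in polysomal RNA) or between fractions (0.0048 in WT and 0.017 in dKO). With the replicate block within fractions 204 genes and 0 members were called, and leaving out a library gave 179 to 1998 genes and 0 to 1 member. The replicate block moved no other count of calls by over 1.5 times: it called 4369 genes in total RNA, 5771 in polysomal RNA, 5083 in the test of genotype against fraction and 4893 in dKO between fractions, where it ended the call of Ago1 (adjusted p = 0.0731, edgeR). With the replicate block within genotypes instead (added after seeing the data), 467 genes and 0 members were called in WT between fractions, and Ago1 lost its calls in WT (adjusted p = 0.110, edgeR) and dKO (0.0550). Of the summed level per length, Ago1 held 81.8% in WT and 82.0% in dKO, and Tnrc6a 49.8% and 46.3%, with the longest transcript as length. Depth limits the precision for Ago4 and Trim71, at 191 to 448 counts in a total RNA library, and for Ago3, at 129 and 180 counts in the dKO polysomal libraries.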
